A study of Mus musculus with 4 samples.

Results

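The Kruppel-like factors described here are 10 genes, Klf2, Klf3, Klf4, Klf5, Klf6, Klf7, Klf9, Klf10, Klf11 and Klf13, taken by name from a count table of 54532 genes. Their transcripts were counted in poly(A)-selected RNA from cultured LL2 cells, a mouse line that comes from a Lewis lung carcinoma. Lactic acid, which glycolytic cells release, was added to the medium at 20 mM for 24 h in 2 libraries. In the other 2 libraries PBS, a buffered saline, was added in equal volume for 24 h. All 4 libraries come from this single cell line, with no genetic change labelled. The labels call the replicates biological but do not say whether they were separate cultures, so p-values measure only the spread between these libraries. All 10 genes were abundant enough to test, out of 13922 genes in all.

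Kruppel-like factors are transcription factors whose zinc fingers, at the end of the protein, bind GC-rich boxes and CACCC boxes, the same DNA that SP factors bind. The family falls into 3 groups by the proteins that its members recruit. One group (Klf9, Klf10, Klf11, Klf13 and relatives) recruits the SIN3 corepressor, another (Klf3 and relatives) recruits the CtBP corepressors, and the remaining group (Klf2, Klf4, Klf5, Klf6, Klf7) mainly activates through acetyltransferases such as p300. In cultured cells several members respond within hours to growth factors, hormones and stress, and they are known for tuning proliferation and differentiation.

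With lactic acid, 6 of the 10 genes rose, 1 fell and 3 did not pass the test. Klf10 (2.76-fold) and Klf11 (2.70-fold) rose most, followed by Klf9 (1.67-fold), Klf5 (1.34-fold), Klf13 (1.23-fold) and Klf7 (1.14-fold). Klf3 fell to 0.747-fold, and Klf2, Klf4 and Klf6 did not pass. A gene passed at an adjusted p below 0.05 in edgeR's quasi-likelihood test, Benjamini-Hochberg adjusted over all 13922 genes. Among all genes tested 49.0% were called by this rule, 24.7% higher and 24.3% lower. Changes of at least 2-fold were called upward in 4.56% of all genes, and Klf10 and Klf11 were the 2 members among them. No member was among the 1.64% called at least 2-fold lower. DESeq2 called 34.1% of all genes and limma, on log2(FPKM + 1), called 38.2%, and both called 5 members higher and 1 lower. The median log2 fold change of the 10 was 0.25, against 0.01 over all genes tested. Levels of the groups, in CPM (read counts scaled to library size), did not overlap for 9 of the 10 genes, the exception being Klf6, where 72.3% of all genes tested had groups that did not overlap. With 2 libraries against 2, an exact permutation test of a single gene cannot reach a two-sided p under 0.333. The calls therefore depend on how edgeR pools the spread across genes.

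**Figure D1:**
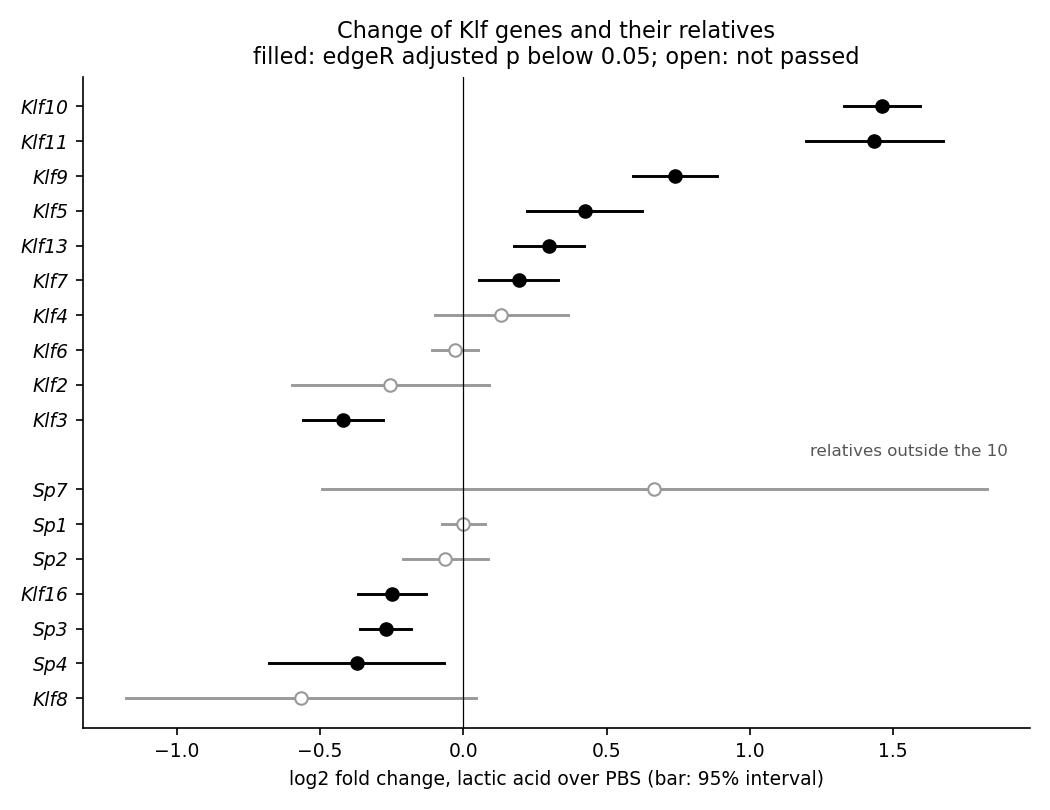
Log2 fold change of each gene, lactic acid over PBS (x axis), with its 95% interval from the edgeR fit as a bar. The 10 Klf genes are in the upper block and the tested relatives in the lower one, filled where the adjusted p was below 0.05. Klf10 (1.46) and Klf11 (1.43) lie farthest right, Klf3 (-0.42) is the lowest of the 10, and no tested relative is filled to the right of 0.

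The 4 libraries held 15501006 to 17409990 counts, of which the 10 genes together took 6565 to 8495 reads a library. Their smallest count was 102 reads, for Klf2. Mitochondrial transcripts took 2.25% to 2.29% of the counts. Of the epithelial markers Krt18 was present, at 99.1 ± 0.986 CPM under lactic acid and 99.3 ± 3.07 CPM under PBS (SD, n = 2 each). Krt8 fell to 53.3 ± 0.860 CPM with lactic acid, against 118 ± 1.83 CPM with PBS, though a near-identical copy of it is annotated, while Epcam and Cdh1 had 0 to 2 reads a library. The summed level of 5 epithelial markers was 153 CPM in both lactic acid libraries and 214 to 221 CPM in the PBS libraries. Mesenchymal markers, led by Vim and Fn1, summed to 5639 and 5694 CPM under lactic acid and to 5687 and 5694 CPM under PBS. Within that sum Fn1 rose (log2 fold change 0.60, adjusted p = 1.55e-33) and Vim fell (-0.28, adjusted p = 3.65e-22). Of 5 haematopoietic markers 3 were at 0 in every library and Ptprc had 1 read over all 4 libraries. Cd68, a lysosomal protein gene, made up nearly all of that sum, which was 6.74 and 7.85 CPM under lactic acid and 3.91 and 4.03 CPM under PBS. The 4 endothelial markers, of interest because endothelium is a known site of Klf2 and Klf4, summed to 0.699 and 1.03 CPM under lactic acid and 0.630 and 0.642 CPM under PBS. The 4 lung epithelium markers summed to 0.191 and 0.181 CPM under lactic acid and 0.126 and 0.584 CPM under PBS. The part of the shifts in Krt8, Vim, Fn1 and Cd68 in the results for the Klf genes was not tested. In bulk RNA fewer cells with a transcript and less transcript per cell cannot be told apart.

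Bases just before the start site are shown for 4 genes that changed, Klf11, Klf9 and Klf13, which rose, and Klf3, which fell, since KLF and SP factors are themselves known to bind such GC-rich DNA. The windows are the 250 bases before the RefSeq start (GRCm38.p6), 5′ to 3′ on the strand of the gene. Capitals mark matches on either strand to the CACCC box, the GC box GGGCGG, the CCAAT box, the E-box CACGTG (the core of the carbohydrate response element bound by MondoA and ChREBP) or the AP-1 site TGANTCA. The TATA box TATAAA, the cyclic AMP response element TGACGTCA and a MEF2 site were searched as well. Where the deposited table starts the gene before the RefSeq start, as for Klf11 and Klf3, only the bases before the earlier start are shown.
Klf11: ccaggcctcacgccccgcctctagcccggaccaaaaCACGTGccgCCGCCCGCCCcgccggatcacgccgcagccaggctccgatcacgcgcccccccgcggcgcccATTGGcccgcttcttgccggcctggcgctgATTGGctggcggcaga
Klf9: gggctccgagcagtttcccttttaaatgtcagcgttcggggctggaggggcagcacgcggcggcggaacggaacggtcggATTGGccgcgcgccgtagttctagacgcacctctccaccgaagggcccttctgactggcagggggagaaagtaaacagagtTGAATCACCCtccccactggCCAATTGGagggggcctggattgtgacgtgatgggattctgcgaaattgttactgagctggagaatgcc
Klf13: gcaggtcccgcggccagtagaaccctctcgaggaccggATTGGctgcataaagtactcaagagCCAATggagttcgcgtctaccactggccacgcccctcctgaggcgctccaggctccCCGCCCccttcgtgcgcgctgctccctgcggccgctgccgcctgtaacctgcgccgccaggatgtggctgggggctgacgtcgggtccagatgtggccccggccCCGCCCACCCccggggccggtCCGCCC
Klf3: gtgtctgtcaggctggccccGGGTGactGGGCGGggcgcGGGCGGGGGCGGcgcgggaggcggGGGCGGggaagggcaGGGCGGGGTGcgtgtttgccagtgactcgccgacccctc

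The Klf11 bases shown, chr12:24651121-24651273 on the plus strand, hold 2 overlapping GC boxes, 2 CCAAT boxes and 1 CACGTG, and the whole window has 4 GC boxes. The Klf9 window, chr19:23140976-23141225 on the plus strand, held no GC box, 3 CCAAT boxes, of which 2 overlap, and 1 TGANTCA that overlaps its CACCC box. The Klf13 window, chr7:63938916-63939165 on the minus strand, held 3 GC boxes and 2 CCAAT boxes, and its CACCC box overlaps a GC box. The Klf3 bases shown, chr5:64803271-64803387 on the plus strand, hold 5 GC boxes and 2 CACCC boxes, with 1 overlap between the kinds. The whole Klf3 window has 6 GC boxes and 5 CACCC boxes and none of the other motifs. RefSeq promoters were matched for 8 of the 10 genes, and none was available for Klf5 or Klf10, which were not searched. The Klf7 window lies inside the span that the deposited table gives the gene. Among these 8, a GC box was found in 7, CACCC in 5, CCAAT in 4, CACGTG in 3 (Klf4, Klf6 and Klf11), the MEF2 site in 1 (Klf2), TGANTCA in 1 (Klf9), and the TATA box and TGACGTCA in 0. Among 32851 promoter windows of the same length the shares with a match were 32.7% for the GC box, 52.0% for CACCC, 33.9% for CCAAT, 6.02% for CACGTG, 3.20% for the MEF2 site, 6.75% for TGANTCA, 12.4% for TATAAA and 1.55% for TGACGTCA. The windows of the 8 genes had a median GC content of 71.4%, against 52.4% over all windows, so motifs made of G and C meet a different base composition there. Genes that rose and genes that did not pass both carried CACGTG, and these matches are letters in a window and no measure of binding.

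Klf10, a corepressor-recruiting factor first described as an early gene induced by TGF-beta, lies on chromosome 15 at 38291463 to 38300706 (minus strand, GRCm38). It measured 79.8 and 85.2 CPM in the lactic acid libraries, against 28.9 and 31.0 CPM in the PBS libraries. Both lactic acid libraries stood far above both PBS libraries, and the replicates of a group lay close together. The log2 fold change was 1.46 (SE 0.07, adjusted p = 2.37e-27), and 2.88% of the genes tested had a larger change in either direction.

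Klf11, the closest relative of Klf10 and likewise inducible by TGF-beta, lies on chromosome 12 at 24651274 to 24662789 (plus strand). It measured 23.2 and 25.8 CPM in the lactic acid libraries, against 9.45 and 8.70 CPM in the PBS libraries. The groups were again well separated, with replicates close together. Its log2 fold change was 1.43 (SE 0.12, adjusted p = 7.73e-16), and its 95% interval of 2.29-fold to 3.19-fold covers the value of Klf10.

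Klf9, which is known as a direct target of glucocorticoid and thyroid hormone receptors, lies on chromosome 19 at 23141226 to 23166911 (plus strand). Its levels were 54.3 and 51.2 CPM with lactic acid, against 32.8 and 30.4 CPM with PBS. Every lactic acid value exceeded every PBS value by more than the gap between replicates. The log2 fold change was 0.74 (SE 0.07, adjusted p = 4.20e-13).

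Klf13, a regulator of chemokine and cytokine genes in lymphocytes, lies on chromosome 7 at 63886351 to 63938915 (minus strand). It measured 68.3 and 69.1 CPM in the lactic acid libraries and 59.2 and 52.6 CPM in the PBS libraries. The groups did not overlap, and the PBS replicates lay farther apart than the lactic acid replicates. The log2 fold change was 0.30 (SE 0.06, adjusted p = 3.75e-05), and it was 0.21 without PBS replicate 2.

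Klf16, the remaining SIN3-recruiting relative that was expressed, went the other way. It measured 57.4 ± 0.321 CPM under lactic acid and 68.3 ± 0.200 CPM under PBS (SD, n = 2 each), a log2 fold change of -0.25 (SE 0.06, adjusted p = 2.97e-04). Of the 6 genes listed in this group 5 were tested, 4 rose and 1 fell, and Klf14 had 0 reads in all libraries. Of all genes tested 49.0% were called, 24.7% higher and 24.3% lower. Among the members of this group the ratio of Klf10 to Klf16, on the FPKM scale, was 0.893 and 0.946 with lactic acid and 0.271 and 0.290 with PBS.

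**Figure D2:**
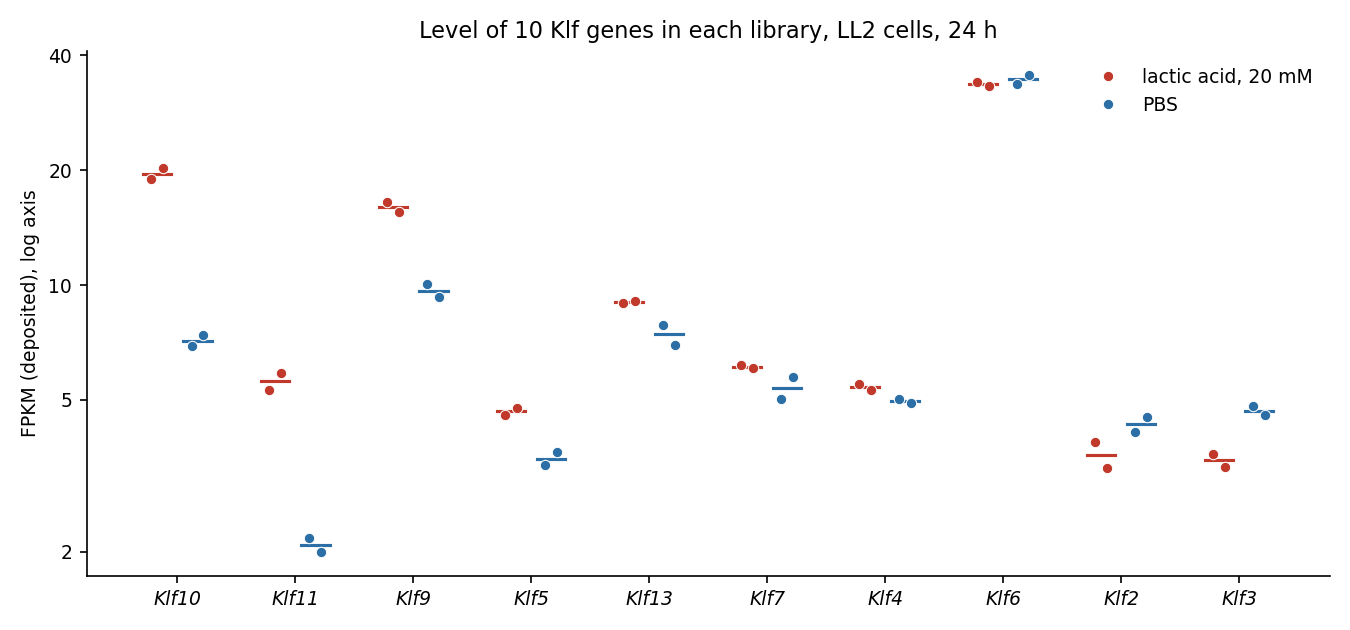
FPKM of each of the 10 genes on a log axis (y axis), by gene (x axis), in order of fold change. Points are libraries, lactic acid left of PBS, and short lines are group means. Klf10, at 18.9 and 20.2 FPKM with lactic acid, lies above its PBS values of 6.90 and 7.41 FPKM, while the points of Klf6 overlap.

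Among the mainly activating members Klf5, known for driving proliferation in basal and crypt epithelium, changed most. It lies on chromosome 14 at 99298691 to 99315036 (plus strand). Klf5 measured 24.0 and 25.0 CPM with lactic acid, against 17.6 and 19.0 CPM with PBS. The groups were separate, with a log2 fold change of 0.42 (SE 0.10, adjusted p = 3.11e-04).

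Klf7, a factor of axon growth in neurons that is also widely expressed, lies on chromosome 1 at 64029447 to 64122282 (minus strand). Its levels were 50.6 and 49.7 CPM under lactic acid and 41.0 and 46.7 CPM under PBS. The higher PBS library came close to the lactic acid libraries. The log2 fold change was 0.19 (SE 0.07, adjusted p = 0.0177), and this call was lost in 7 of 11 alternatives. The edgeR adjusted p was 0.10004 without lactic acid replicate 1, 0.0563 without lactic acid replicate 2 and 0.330 without PBS replicate 1, where the log2 fold change was 0.10. Over all alternatives, DESeq2 and limma included, it ranged from 0.00253 to 0.330.

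Klf4, a reprogramming factor and regulator of epithelial barrier genes, lies on chromosome 4 at 55527143 to 55532466 (minus strand). It measured 16.97 and 16.3 CPM in the lactic acid libraries and 15.4 and 14.998 CPM in the PBS libraries. The lactic acid values were higher in both libraries, by little more than the gap between replicates. Its log2 fold change of 0.13 (SE 0.12, adjusted p = 0.363) did not pass, and the 95% interval ran from 0.933-fold to 1.29-fold.

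Klf6, a ubiquitous factor induced early after injury, lies on chromosome 13 at 5861482 to 5870394 (plus strand). It measured 151 and 147 CPM under lactic acid and 148 and 156 CPM under PBS. The groups overlapped, with 1 PBS library above both lactic acid libraries. Its log2 fold change was -0.03 (SE 0.04, adjusted p = 0.575), and the 95% interval of 0.927-fold to 1.04-fold was the narrowest of the 10. Without PBS replicate 2 the sign turned (log2 fold change 0.0048).

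Klf2, which keeps endothelium and T cells quiescent, lies on chromosome 8 at 72319033 to 72321656 (plus strand). It measured 7.24 and 6.16 CPM under lactic acid and 7.62 and 8.35 CPM under PBS. Both lactic acid values were below both PBS values, but replicates differed by more than the gap between the groups. The log2 fold change of -0.25 (SE 0.17, adjusted p = 0.221) did not pass, with a 95% interval from 0.661-fold to 1.06-fold. Without lactic acid replicate 2 it was -0.14. Of the activating group 6 genes were listed and 5 tested, of which 2 rose and 3 did not pass. Thus 40% of those tested were called, against 49.0% of all genes tested. The remaining listed gene, Klf1, the erythroid factor, had 8 and 11 reads with lactic acid and 3 and 2 reads with PBS, too few to test.

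Klf3, a CtBP-recruiting repressor, was the only one of the 10 genes called lower. It lies on chromosome 5 at 64803388 to 64832901 (plus strand). Its levels were 40.9 and 37.9 CPM with lactic acid, against 54.2 and 51.3 CPM with PBS. Every lactic acid value was below every PBS value by more than the gap between replicates, with a log2 fold change of -0.42 (SE 0.07, adjusted p = 6.98e-07). Klf8, a relative of Klf3, had 24 and 42 reads with lactic acid and 44 and 56 reads with PBS (log2 fold change -0.57, SE 0.30, adjusted p = 0.119). Among the alternatives run it passed only without lactic acid replicate 2 (-0.98, adjusted p = 0.0359, in a range of 0.0359 to 0.613). Klf12 had 2 and 4 reads with lactic acid and 0 in both PBS libraries.

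**Figure D3:**
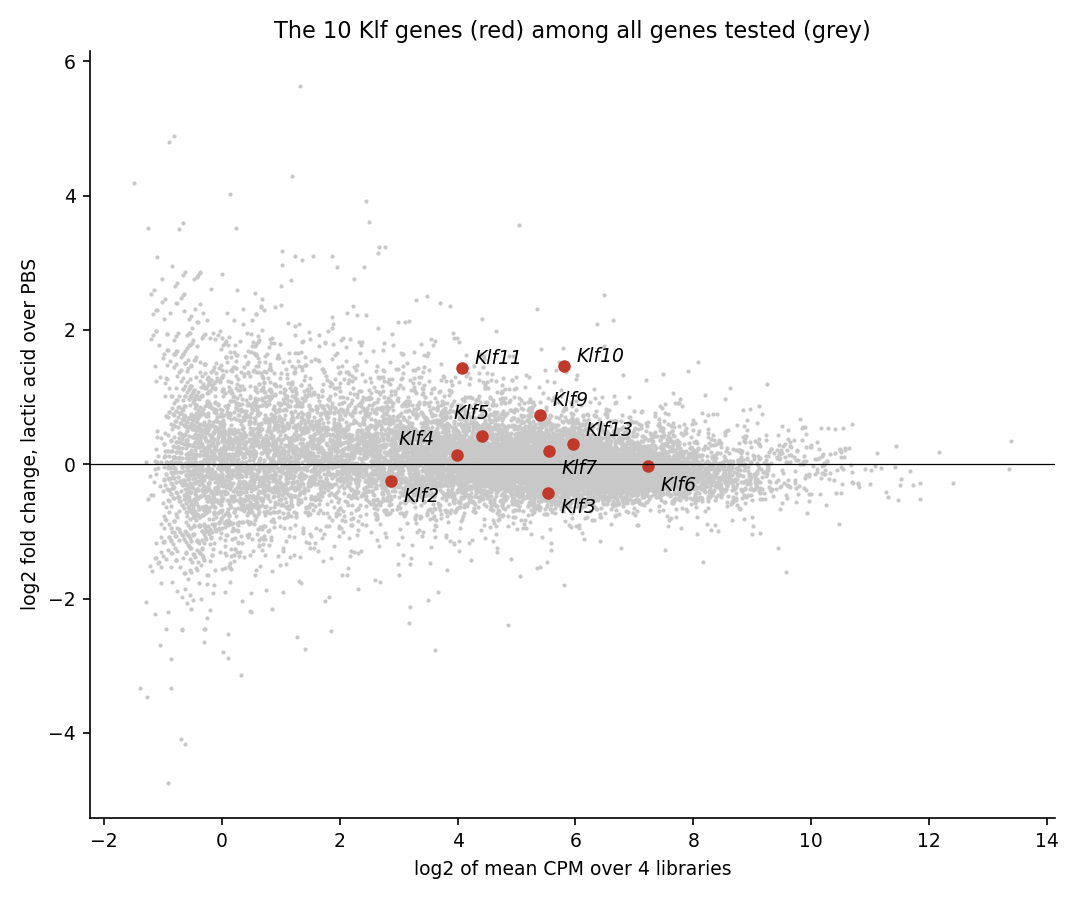
Log2 fold change, lactic acid over PBS (y axis), against the log2 of the mean CPM of 4 libraries (x axis), for all genes tested in grey and the 10 Klf genes in red. Klf10 and Klf11 lie near the upper edge of the grey cloud at their abundance, and Klf6 lies close to 0.

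Levels can be compared between genes on the authors' FPKM scale, reads scaled to gene length and library size. Summed over the 10 genes, FPKM came to 108 and 107 in the lactic acid libraries and to 83.0 and 84.6 in the PBS libraries, a ratio of 1.28. Klf6 stood at the head in both groups, with 33.6 ± 0.622 FPKM with lactic acid and 34.6 ± 1.38 FPKM with PBS (SD, n = 2 each). Its share of the sum was 31.7% and 31.1% in the lactic acid libraries, against 40.5% and 42.0% in the PBS libraries. Klf10 ranked second with lactic acid at 19.6 ± 0.910 FPKM, while with PBS it came after Klf6, Klf9 and Klf13 at 7.16 ± 0.357 FPKM. Its share of the sum was 17.6% and 18.9% with lactic acid and 8.32% and 8.75% with PBS.

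With lactic acid the order of FPKM was Klf6, Klf10, Klf9, Klf13, Klf7, Klf11, Klf4, Klf5, Klf2 and Klf3. In that group Klf11 and Klf4, and likewise Klf2 and Klf3, had overlapping values. With PBS the order was Klf6, Klf9, Klf13, Klf10, Klf7, Klf4, Klf3, Klf2, Klf5 and Klf11. There Klf13 and Klf10 overlapped, as did Klf7 and Klf4. Klf11, at 2.09 ± 0.124 FPKM the lowest of the 10 with PBS, stood at 5.59 ± 0.423 FPKM with lactic acid. Klf3, at 3.47 ± 0.188 FPKM, was the lowest with lactic acid, against 4.69 ± 0.184 FPKM with PBS.

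The summed FPKM was higher by 23.3 with lactic acid. Klf10 alone was higher by 12.4 FPKM, or 53.3% of that net difference. Klf9 was higher by 6.34 FPKM (27.2%) and Klf11 by 3.51 FPKM (15.1%). Klf3, at -1.22 FPKM, had the largest difference downward. The ratio of Klf5 to Klf3 was 1.27 and 1.43 with lactic acid and 0.701 and 0.799 with PBS. The ratio of Klf10 to Klf6 was 0.556 and 0.609 with lactic acid and 0.205 and 0.208 with PBS. Neither pair of ratios overlapped between groups, but these ratios restate the changes of the single genes given above.

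**Figure D4:**
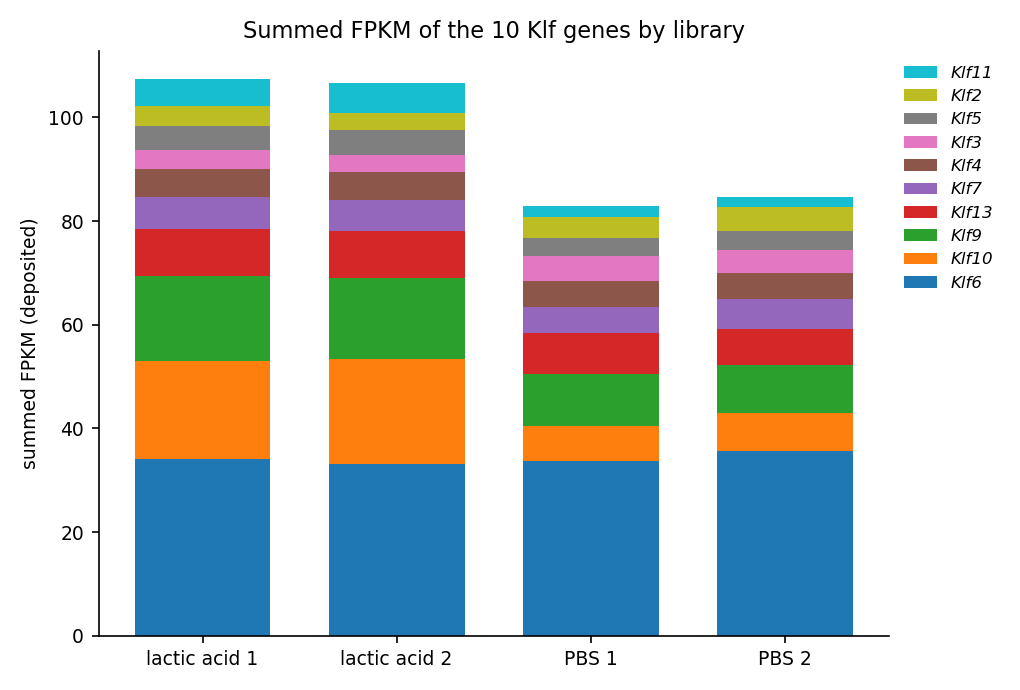
Summed FPKM (y axis) of the 10 Klf genes in each library (x axis), stacked by gene from Klf6 at the bottom. The lactic acid bars reach 108 and 107 FPKM and the PBS bars 83.0 and 84.6 FPKM, with a Klf6 block of similar height in each and taller blocks of Klf10, Klf9 and Klf11 with lactic acid.

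The deposited tables class 576 genes as C2H2 zinc finger factors, all 10 Klf genes among them. Of the 566 others 407 were tested, and 37.3% of these passed, 56 higher and 96 lower, with a median log2 fold change of -0.06. Of the 10 Klf genes 6 were called higher and 1 lower, where 24.7% of all genes tested were called higher and 24.3% lower. Among the 9 SP genes, which share the zinc finger type and the binding sites, 5 were tested, none rose and 2 fell. Thus 40% of the tested SP genes were called, against 49.0% of all genes tested. Sp3, an activator or repressor depending on its form, measured 96.3 ± 2.57 CPM under lactic acid and 116 ± 2.74 CPM under PBS (log2 fold change -0.27, SE 0.04, adjusted p = 6.97e-07). Sp4, abundant in neurons, had a log2 fold change of -0.37 (adjusted p = 0.0384). That call was lost without lactic acid replicate 1 (adjusted p = 0.274), PBS replicate 1 (0.0552) or PBS replicate 2 (0.153), and in 8 of 11 alternatives in all, with an adjusted p from 0.0288 to 0.274. Sp2 (-0.06, adjusted p = 0.515) and Sp7 (0.67, adjusted p = 0.357) did not pass. Sp5 had 5 reads in 1 lactic acid library and 0 in the others, Sp6 had 0 in all, and Sp8 and Sp9 had 5 to 12 reads a library. Klf14, Klf15 and Klf17 had 0 reads in all libraries, which allows a level of up to 0.191 CPM in any of them. That bound covers counting error only, and a near-identical copy of Klf17 is annotated.

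Of 14 listed genes of cofactors through which KLF proteins act on chromatin, all tested, 9 fell, none rose and 5 did not pass, with a median log2 fold change of -0.16. These calls cover 64.3% of the list, against 49.0% of all genes tested, of which 24.3% were lower. This list and those that follow were chosen with earlier results of these data known, so their shares are no test. Ctbp1 and Ctbp2, the corepressors that Klf3 recruits, fell to 177 ± 6.82 and 46.2 ± 4.10 CPM with lactic acid, against 221 ± 5.74 and 63.6 ± 1.48 CPM with PBS (log2 fold changes -0.32 and -0.46, adjusted p = 1.46e-10 and 1.66e-08). Ep300, the acetyltransferase gene used by activating members, fell to 120 ± 7.17 CPM with lactic acid, against 166 ± 3.42 CPM with PBS (-0.47). Hdac1, the histone deacetylase of the SIN3 complex, fell to 174 ± 4.50 CPM with lactic acid, against 232 ± 0.799 CPM with PBS (-0.41), though a near-identical copy of it exists.

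The list for the cascade from MEK5 over ERK5 to MEF2 factors, a known driver of Klf2 and Klf4 in endothelium, held 11 genes, among them 3 class II deacetylase genes whose products bind MEF2 and repress its targets. Of these 11 genes 9 were tested, 4 rose, none fell and 5 did not pass, so that 44.4% were called, against 49.0% of all genes tested. Of the 4 that rose, 2 were the deacetylase genes Hdac5 and Hdac7. Mef2d, which encodes a MEF2 factor, measured 143 ± 5.91 CPM under lactic acid and 123 ± 0.342 CPM under PBS (log2 fold change 0.21, adjusted p = 1.65e-05, and 0.0624 in limma without a filter). A near-identical copy of Mef2d is annotated, an antisense transcript that overlaps it with 0.161% as many reads. Map2k5, which encodes MEK5, had a log2 fold change of 0.26 (adjusted p = 0.00531). That call was lost without lactic acid replicate 1 (0.0661), with DESeq2 (0.0873) and in limma without a filter (0.0507). Hdac7 had a log2 fold change of 0.20 (adjusted p = 1.95e-05, and 0.0515 in limma without a filter), but Slc48a1 overlaps it on the other strand with 96.5% as many reads. Hdac5 had one of 0.17 (adjusted p = 0.00913), a call lost in 6 of 11 alternatives (0.211 without lactic acid replicate 1 and 0.0517 without PBS replicate 1). Hdac4, named after its value was seen, did not pass (0.11, adjusted p = 0.0768). Klf2 and Klf4 themselves did not pass, as above.

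KLF proteins are short-lived, and 9 genes of ubiquitin enzymes known to act on them were listed and tested. Of these 3 rose, 2 fell and 4 did not pass, so that 55.6% were called, against 49.0% of all genes tested. Smurf1, a ligase described for Klf2 protein, fell to 106 ± 5.11 CPM with lactic acid, against 125 ± 0.745 CPM with PBS (log2 fold change -0.24, adjusted p = 5.16e-06). Btrc, a substrate adaptor of an SCF ligase, rose by 0.33 on the log2 scale (adjusted p = 7.82e-04), a call lost in all 3 limma fits (0.144, 0.140 and 0.223). Wwp1, the ligase of Klf5 and Klf2 proteins, had a log2 fold change of 0.21 (adjusted p = 0.00738, 0.0564 without lactic acid replicate 2 and 0.121 without PBS replicate 2), lost in 6 of 11 alternatives. Vhl, a ligase subunit described for Klf4 protein, had one of -0.27 (adjusted p = 0.0162, 0.0815 without lactic acid replicate 1 and 0.226 without PBS replicate 1), lost in 4 of 11.

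Klf10 and Klf11 are known early targets of TGF-beta, and 12 other genes of the pathway were listed, both its targets and its ligand, receptor and SMAD genes. Of these 11 were tested, 7 rose, 2 fell and 2 did not pass, so that 81.8% were called. Of all genes tested 49.0% were called, 24.7% higher and 24.3% lower. The median log2 fold change of the list was 0.45, against 0.01 over all genes tested. The list was chosen with earlier results of these data known, so these values are no test of the pathway. The 7 include the ligand gene Tgfb1 (0.50) and the receptor gene Tgfbr1 (0.27), and the 2 that fell were the receptor gene Tgfbr2 (-0.20) and the transducer gene Smad2 (-0.24), all 4 named after their values were seen. The feedback inhibitor genes Smad7 and Skil rose to 45.8 ± 2.77 and 45.8 ± 1.67 CPM with lactic acid, against 27.5 ± 0.117 and 28.0 ± 2.98 CPM with PBS (1.67-fold and 1.63-fold). Junb, an AP-1 subunit gene, rose 1.66-fold (adjusted p = 1.63e-16), but Prdx2 overlaps it on the other strand with 292% as many reads. These genes are also targets of other signals.

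Klf9 is a known glucocorticoid target, and 7 genes of the receptor and its targets were listed. Of these 6 were tested, 3 rose, 1 fell and 2 did not pass, so that 66.7% were called, against 49.0% of all genes tested. Nr3c1, the receptor gene, fell to 95.04 ± 4.11 CPM with lactic acid, against 125 ± 4.22 CPM with PBS (log2 fold change -0.39, adjusted p = 6.46e-11). Tsc22d3, which encodes the leucine zipper protein GILZ, rose 1.47-fold (adjusted p = 2.35e-04, and 0.0512 in limma without a filter), and the clock gene Per1 rose 1.34-fold (adjusted p = 1.87e-06). Fkbp5, a receptor chaperone gene, had a log2 fold change of 0.12 (adjusted p = 0.0153). That call was lost without lactic acid replicate 1 (0.0681), lactic acid replicate 2 (0.0799) or PBS replicate 2 (0.101), and in 7 of 11 alternatives in all.

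Of 15 genes described elsewhere as targets of KLF factors 13 were tested, 5 rose, 5 fell and 3 did not pass. Thus 76.9% were called, against 49.0% of all genes tested. Lgals3, the galectin-3 gene, which Klf3 is known to repress in mice, fell to 152 ± 4.65 CPM with lactic acid, against 293 ± 3.29 CPM with PBS (log2 fold change -0.95, adjusted p = 1.10e-30). Klf3 itself was lower in the same libraries, as given above, and whether the changes of Klf3 and Lgals3 are linked was not tested. Cdkn1a, the p21 gene, induced by Klf4 and Klf6 in other cells, rose 2.01-fold (adjusted p = 3.34e-28). Ccnd1, the cyclin D1 gene, repressed by Klf4 and induced by Klf5 in other cells, rose to 538 ± 6.74 CPM with lactic acid, against 402 ± 8.39 CPM with PBS (1.34-fold).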

How the data were processed

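Whole-number read counts per gene were used as deposited by the authors, with no scaling. The FPKM values are a second table deposited by the authors, and count divided by gene length and FPKM gave 1 constant per library, 0.982 to 1.02 times the total count. Per the submitters' processing notes, the tools were DESeq2 1.16.1, StringTie 1.3.3b, featureCounts 1.5.0-p3, HISAT2 2.0.5 and CASAVA, and the build was GRCm38.p6, with no role given. Per the labels' protocols library preparation used NEBNext Ultra reagents, a kit without strand marking. Settings for strand and overlapping genes are not given in the sources used here.

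Counts were fitted in R 4.3.3 with edgeR 4.0.16 (filterByExpr with a minimum count of 10 and total of 15, TMM factors, robust quasi-likelihood fit, glmQLFTest, two-sided, Benjamini-Hochberg over all 13922 genes kept, threshold 0.05). CPM use TMM-scaled library sizes. The SE is the log2 fold change divided by the square root of F, and 95% intervals use the t quantile. A level of 0 allows up to 3 counts, 0.175 to 0.191 CPM, for counting error only. Adjusted p-values are from edgeR where no other tool is named. Alternatives were DESeq2 1.42.0, RLE factors, no filter, the replicate block, leaving out each library (the lone library of a group is then assumed to vary like the other group), and limma 3.58.1 on log2(FPKM + 1) or log2(FPKM + 0.1), for genes with a mean FPKM of at least 0.5 or with no filter. The procedure was tested on simulated data. Of the changed genes tested there, it called 12.5% at a log2 change of 0.25 and 69.4% at 0.5. At a log2 change of 1 it called 85.7% and at 2 it called 100%.

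The members and lists were chosen with earlier results of these data known. All 10 members are named, with up to 4 genes of smallest p from each other list. The values of 2 of these genes are not reported here. Genes overlapping the members held at most 0.399% as many reads. Copies with at least 98% identity over 300 bases (blastn 2.17.0, GENCODE M21) were found for Klf3 and Klf7, both transcripts overlapping the gene itself.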

Additional observations from a re-analysis of the deposited data

How the results depend on the processing

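With 2 libraries a group, 1 library can decide a value. The number of members called higher was 6 in the analysis reported, 5 with DESeq2 and with limma on log2(FPKM + 1) or log2(FPKM + 0.1), 4 with limma without a filter, and 5 to 6 with 1 library left out. One member, Klf3, was called lower under every alternative run. Klf7 did not pass with DESeq2 (log2 fold change 0.19, adjusted p = 0.167), limma on log2(FPKM + 1) (0.16), on log2(FPKM + 0.1) (0.18) or without a filter (0.16), and ranged from 0.10 to 0.28 with 1 library left out. Klf13 did not pass in limma without a filter (0.26, adjusted p = 0.0934), where more genes are tested. Klf6 ranged from -0.0728 to 0.0048 and Krt18 from -0.0429 to 0.0246 with 1 library left out, and neither passed in any. Over 11 alternatives each, 101 of the values of the 10 members kept their direction and side of the threshold, 8 lost the call and 1, that of Klf6, changed sign. Of the values of the other named genes 368 kept both, 40 lost the call, 2 gained it and 2, those of Krt18, changed sign. Over all genes, 3445 were called higher and 3377 lower. DESeq2 called 2251 higher, and limma called 2281 with a pseudocount of 1, 2287 with 0.1 and 1659 without a filter, where 2029 were lower. The cause of these differences was not tested. With the replicate number as a block, 3459 genes were higher and 3393 lower, and no member changed its call. Same-numbered libraries did not deviate together (Pearson's r = 0.0038 across 13922 genes, which are not independent replicates), so the numbers were not taken as pairs.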
